A study of Homo sapiens with 6 samples.

Results

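Heat shock proteins, their J-domain partners and nucleotide exchange factors, and the transcription factors HSF1 and HSF2 were examined in TPC1, a human papillary thyroid cancer cell line. The genes were chosen by symbol: names beginning with HSPA, HSPB, HSPH, HSP90, HSPD, HSPE, DNAJA, DNAJB or DNAJC and a number, plus HSF1, HSF2 and BAG1 to BAG5. This gave 72 of the 21173 genes in the table, and 6 antisense or divergent transcripts named after them were left out. RNA was sequenced from 3 libraries of TPC1 cells overexpressing the transcription factor TFCP2L1 and from 3 libraries of TPC1 cells with the vector, whose genotype is labelled WT. The promoter that drives TFCP2L1, the time after its introduction and whether the cells were 1 clone or a pool are not given in the sources used here. Nothing in the labels states that the replicates came from separate cultures. The p-values below therefore set differences between the groups only against the spread among these libraries, which may be technical.

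Chaperones of the HSP70 family bind unfolded stretches of other proteins and release them in a cycle driven by ATP. J-domain proteins (DNAJA, DNAJB, DNAJC) bring clients and start ATP hydrolysis, while nucleotide exchange factors (the HSP110 proteins HSPH1, HSPA4 and HSPA4L, and BAG proteins) release ADP and so the client. HSP90 then matures kinases and steroid receptors, small heat shock proteins (HSPB) hold unfolded proteins, and HSPD1 with HSPE1 forms the folding chamber of mitochondria. HSF1 switches on many of the cytosolic genes by binding heat shock elements, arrays of GAA units in alternating orientation.

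TFCP2L1 had 13578, 13885 and 12333 reads in the TFCP2L1 libraries and 0, 0 and 1 read in the vector libraries, so each library matched its label. An exact two-sided permutation test gave p = 0.1, the lowest value possible with 3 libraries a group, and the adjusted p from edgeR was 3.97e-17. Library totals ran from 37928516 to 38987434 reads. Of 10 thyroid follicular markers, 7 were in the table; their summed FPKM (reads scaled by gene length and library total) was 222 to 235 in TFCP2L1 cells and 242 to 250 in vector cells. PAX8, a thyroid lineage factor, was at 119 ± 11.2 FPKM in TFCP2L1 cells and 133 ± 5.36 FPKM in vector cells (SD, n = 3 each), whereas TG, the thyroid hormone precursor, was at 0.088 and 0.0924 FPKM. Of these 7 markers 4 were tested; none was called by edgeR, DESeq2 or limma-voom, 2 had an unadjusted edgeR p under 0.05, and all 4 log2 fold changes were negative (median -0.14). The 3 markers outside the table are not analysed here. Summed markers of fibroblasts were 1.43 to 1.7 FPKM in TFCP2L1 cells and 1.82 to 2.19 FPKM in vector cells. Those of endothelial cells were 0.487 to 0.745 and 0.652 to 0.851 FPKM, and those of leukocytes 0.239 to 0.538 and 0.518 to 0.683 FPKM.

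The promoters of these genes carry heat shock elements at different densities. The stretches below come from the genes called higher or lower in TFCP2L1 cells in which an inverted pair of heat shock units was found. Beside them stand HSPA1A, the uncalled copy of HSPA1B, and HSPA8, the most abundant HSP70 gene. Windows of 300 bases, from 250 before to 50 after each annotated start, were taken from RefSeq on GRCh38.p14. No such pair was found for the called genes BAG3, HSPA12A, DNAJB2 and DNAJB9, and 9 chaperone genes had no window to search. Each stretch is written from its 5′ end on the gene's strand, and capitals mark alternating heat shock units.
HSPA4L: ttccagatctTTCTCGAAcccgcagctt
HSPA1B: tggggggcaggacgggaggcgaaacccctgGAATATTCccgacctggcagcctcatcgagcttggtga
HSPA1A: gaaaaccctgGAATATTCccgacctggc
HSP90AA1: agggttcTTCCGGAAGGTTCgggaggc
DNAJB1: gcgggctctgGAAGCTTCcgccggacgg
BAG2: cgaccgatagGAACCTTCgcgtgggggg
DNAJB6: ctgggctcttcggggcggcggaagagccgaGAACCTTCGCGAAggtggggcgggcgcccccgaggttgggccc
HSPA8: gggccccTTCTGGAAGGTTCtaagata

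These stretches lie at chr4:127782142-127782169 (HSPA4L, plus strand), chr6:31827603-31827670 (HSPA1B, plus), chr6:31815427-31815454 (HSPA1A, plus) and chr14:102087113-102087139 (HSP90AA1, minus). The others lie at chr19:14518427-14518454 (DNAJB1, minus), chr6:57172192-57172219 (BAG2, plus), chr7:157336843-157336915 (DNAJB6, plus) and chr11:123062172-123062198 (HSPA8, minus). HSP90AA1, DNAJB6 and HSPA8 show 3 alternating units, and the other 5 show a pair. In the GENCODE annotation, the HSPA4L, HSPA1A, HSP90AA1, DNAJB1 and HSPA8 stretches, or bases beside them, overlap exons of their own gene. For BAG2 the overlap is with an exon of ZNF451-AS1. The HSPA4L stretch lies after the GENCODE start of its gene (127781821), so it is upstream of the RefSeq start only. The units of HSPA1A and HSPA1B stand in near-identical surroundings, since the genes are neighbouring copies.

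A pair of inverted units, GAANNTTC or TTCNNGAA, was searched on both strands in all windows. It was found in 22 of 82 windows of the chaperone genes (26.8%), which belong to 21 of the 63 genes with a window, and in 13.5% of all 35116 windows. Of the 21 genes, 5 were called higher in TFCP2L1 cells (BAG2, DNAJB1, HSP90AA1, HSPA1B and HSPA4L) and 1 lower (DNAJB6), while HSPB3 and HSPB6 were not tested. Of all tested genes 4.63% were called higher and 6.94% lower, and of the 68 tested chaperone genes 10.3% and 4.41%. A link between the pair and the calls was not tested. The stricter pattern of 3 alternating units, which contains the pair, was found in 7 windows (8.54%) against 0.49% of all windows, in DNAJA1, DNAJB6, HSP90AA1, HSP90AB1, HSPA6, HSPA8 and HSPD1. Of these 7, HSP90AA1 was called higher, DNAJB6 lower and the other 5 neither. The ER stress element (CCAAT and CCACG with 9 bases between) was found in the windows of HSPA5 and HSP90B1, 2.44% of windows against 0.0769% of all. A repeat of CCAG with 6 bases between, the form bound by CP2-type factors such as TFCP2L1, was found in 8 windows (9.76%) against 4.04% of all windows, in BAG5, DNAJB1, HSP90AB1, HSPA1A, HSPA1B, HSPA1L, HSPB8 and HSPD1. HSPA1A and HSPA1L start close to each other in opposite directions and share most of a window. These are matches of letters, with no measurement of binding.

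**Figure D1:**
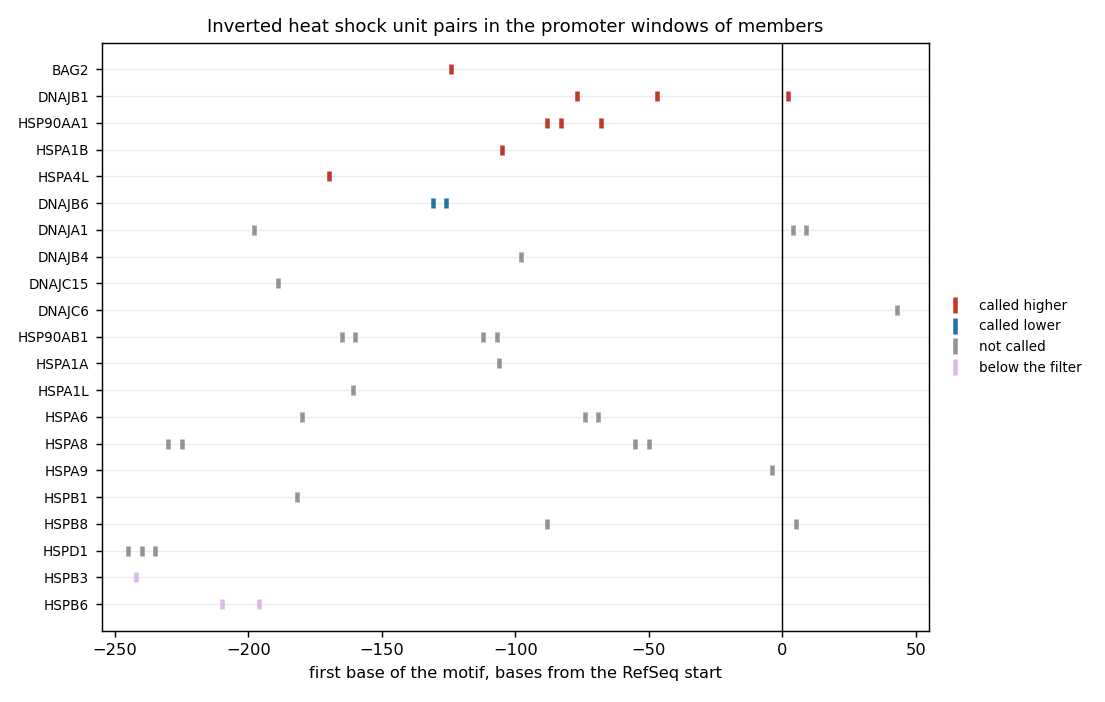
Position of inverted heat shock unit pairs in the promoter windows of the 21 genes that hold one, 1 row per gene; the horizontal axis is the distance in bases from the RefSeq start, and each tick is the first base of a pair. Genes called higher in TFCP2L1 cells (red), lower (blue), not called (grey) and below the expression filter (violet) all hold pairs, mostly upstream of the start.

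Transcript levels of the chaperone genes spanned more than 4 orders of magnitude. HSPA8, the constitutive cytosolic HSP70, was the highest, at 1477, 1609 and 1432 FPKM in TFCP2L1 cells and 1356, 1281 and 1344 FPKM in vector cells, and gave 19.3% to 19.9% of all chaperone reads in each library. All 3 TFCP2L1 libraries were above all 3 vector libraries, yet the log2 fold change of 0.16 ± 0.08 (SE) was not called (edgeR adjusted p = 0.226). HSP90AB1, the constitutive cytosolic HSP90, followed with 888 ± 63.3 FPKM in TFCP2L1 cells and 769 ± 38.6 FPKM in vector cells. HSP90B1 (the HSP90 of the endoplasmic reticulum), HSPA5 (its HSP70, BiP) and HSP90AA1 (the inducible cytosolic HSP90) came next. In vector cells these averaged 478 ± 6.86, 478 ± 25.2 and 448 ± 18.6 FPKM. The vector libraries of HSPA5 overlapped those of both HSP90 genes, whereas each vector library of HSP90B1 was above each of HSP90AA1.

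HSPB1 (HSP27), HSPD1 (HSP60), DNAJA1 and HSPA9 (mitochondrial HSP70) also reached 100 FPKM. Within the HSP70 family HSPA8 was followed by HSPA5, HSPA9 and HSPA4, and the inducible HSPA1A and HSPA6 lay near 1 FPKM. Of the DNAJA genes DNAJA1 was highest, of the DNAJB genes DNAJB11 (90.8 ± 8.26 FPKM in TFCP2L1 cells and 87.1 ± 3.82 in vector cells) and of the DNAJC genes DNAJC8 (95.3 ± 6.91 and 91.8 ± 0.54). BAG3 was the highest BAG gene, and HSF1 stood above HSF2. At the low end DNAJC5B, HSPA12B, HSPB3 and HSPB6 did not pass the filter on low counts and were not tested. Their summed reads over 3 libraries were 1, 0, 0 and 15 in TFCP2L1 cells and 2, 14, 1 and 6 in vector cells.

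**Figure D2:**
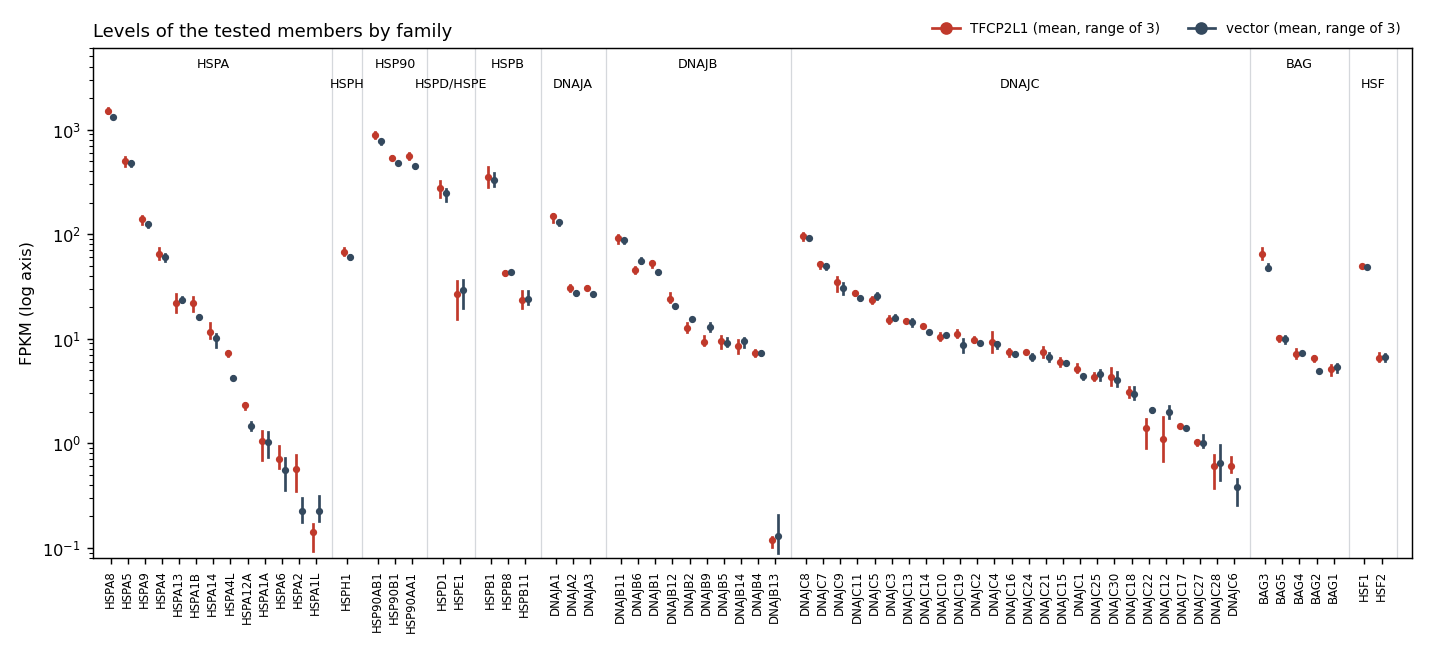
FPKM on a log axis of the 68 tested chaperone genes, grouped by family and ordered by level; points are means and lines the range of 3 TFCP2L1 libraries (red) and 3 vector libraries (dark). HSPA8 is highest at 1506 FPKM in TFCP2L1 cells and 1327 FPKM in vector cells, and DNAJB13 is lowest.

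Most chaperone transcripts differed little between the groups, and 10 of the 68 tested were called: HSPA4L, HSPA12A, HSPA1B, HSP90AA1, BAG2, BAG3 and DNAJB1 rose in TFCP2L1 cells, and DNAJB2, DNAJB6 and DNAJB9 fell. A gene was called where edgeR's adjusted p over all 14431 tested genes was under 0.05. The 7 that rose are 10.3% of the 68, beside 4.63% of all genes called higher, and the 3 that fell are 4.41%, beside 6.94% of all genes called lower. Libraries of the groups did not overlap, with TFCP2L1 above, for 18 chaperone genes (26.5%, beside 14.4% of all genes), and with TFCP2L1 below for 6 (8.82%, beside 15.6%). The median log2 fold change was 0.04 in the chaperone genes and 0.00 in all genes, and 47 of 68 were positive (69.1%) against 50.5% of all genes. Because the RNA is bulk, fewer cells of a type and less RNA per cell cannot be told apart.

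The chaperone genes together took 1.74, 1.85 and 1.65% of reads in TFCP2L1 cells and 1.59, 1.49 and 1.59% in vector cells. The groups did not overlap, and the lowest share in each came from TFCP2L1 replicate 3 and vector replicate 2. These were also the libraries with the highest share of reads on mitochondrially encoded genes, 7.59% against 5.19 and 5.8% in the other TFCP2L1 libraries and 6.72% against 5.14 and 5.13% in the other vector libraries. TFCP2L1 replicate 3 was the lowest of its group for 31 of the 68 genes and vector replicate 2 for 39. The part of mitochondrial share in the results was not tested.

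**Figure D3:**
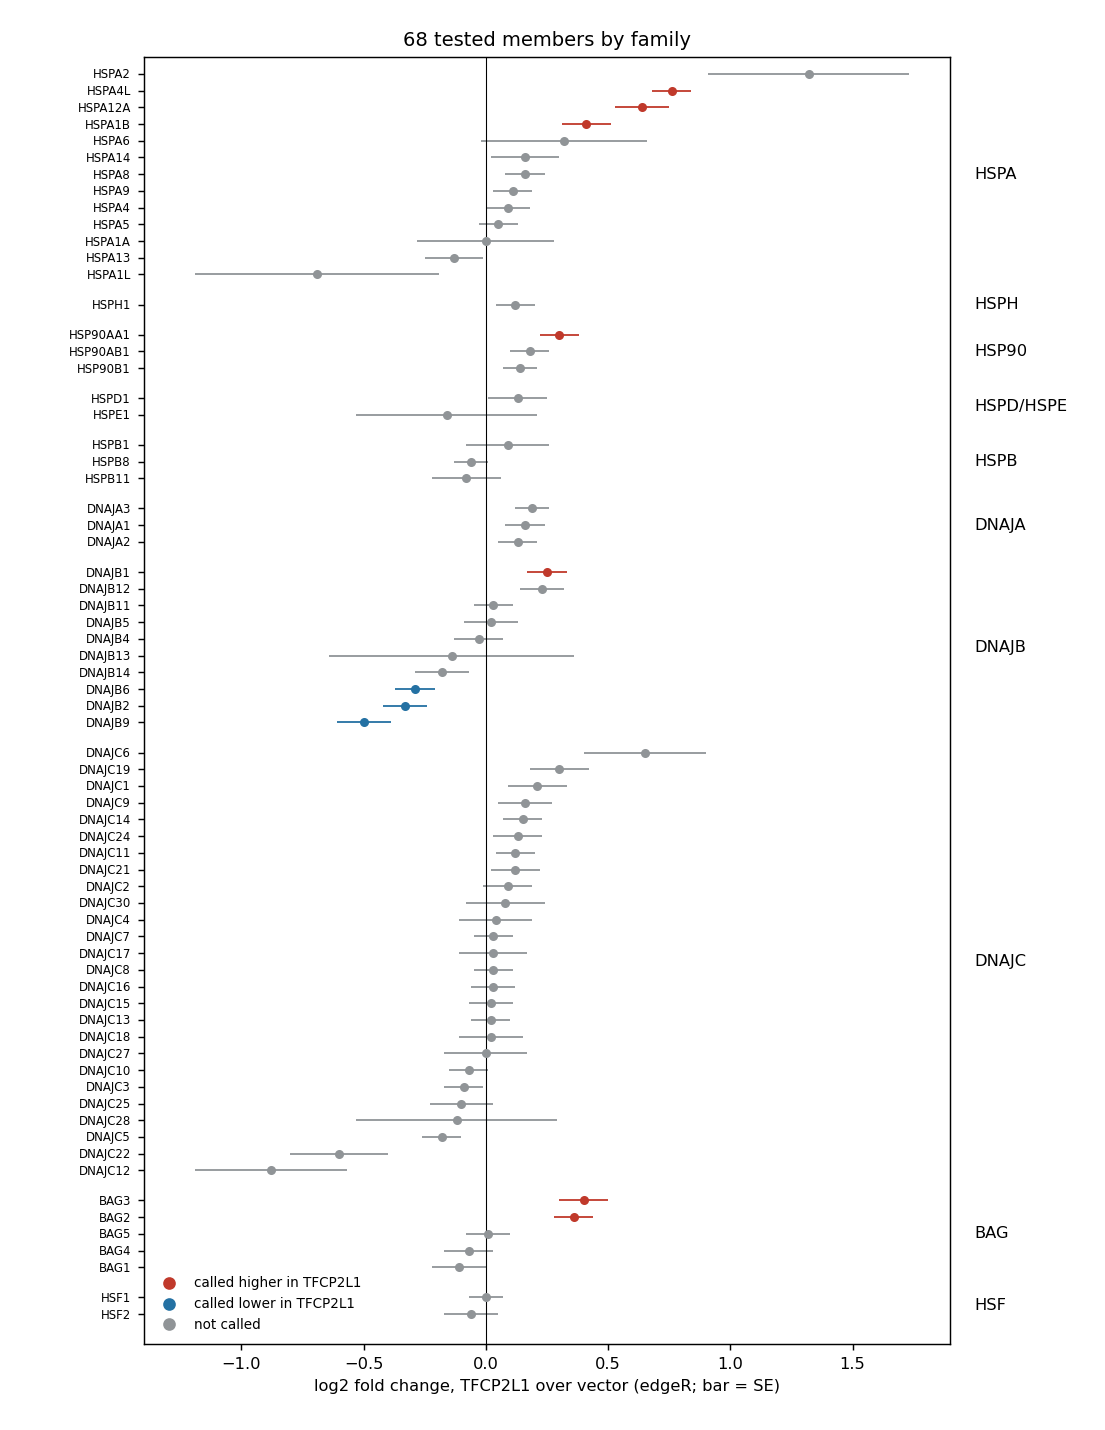
Log2 fold change of TFCP2L1 over vector for the 68 tested genes by family, with the standard error from edgeR; red points were called higher, blue points lower and grey points not called. Values run from -0.88 to 1.32. The 3 genes called lower are all among the 10 DNAJB genes (30%, beside 6.94% of all genes called lower). None of the 26 DNAJC genes was called.

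Nucleotide exchange factors accounted for 3 of the 7 genes that rose. Of 8 tested, HSPA4L, BAG2 and BAG3 rose (37.5%, beside 4.63% of all genes) and none fell (beside 6.94%), with a median log2 fold change of 0.10. This list was chosen with earlier results of these data known, and HSPA4L and BAG3 were given as markers, so the share is not independent support. Both genes also count in the cytosolic heat-inducible list below. HSPA4L, an HSP110-type protein first described in mouse testis, stood at 7.29, 7.69 and 6.85 FPKM in TFCP2L1 cells and 4.22, 4.1 and 4.36 FPKM in vector cells. The groups were far apart, with a log2 fold change of 0.76 ± 0.08 (edgeR adjusted p = 6.15e-06). HSPA4L (ENSG00000164070.11; GRCh38 chr4:127781821-127840733, plus strand) shares 4.61% of its exon bases with an antisense gene. HSPA4, its more abundant relative, was at 65.2 ± 8.4 FPKM in TFCP2L1 cells and 60.3 ± 5.13 FPKM in vector cells (0.09 ± 0.09, adjusted p = 0.622). HSPH1, the heat-inducible HSP110, was at 67.1 ± 5.86 and 60.7 ± 2.37 FPKM (0.12 ± 0.08, adjusted p = 0.384), and its libraries overlapped.

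The ratio of HSPA4L to HSPA4 within a library was 0.114, 0.104 and 0.119 in TFCP2L1 cells and 0.0691, 0.0748 and 0.0671 in vector cells. Exact two-sided permutation of the libraries gave p = 0.1, the smallest possible, and 0.167 after Benjamini-Hochberg adjustment over the 5 ratios computed. Each of the 5 ratios has a gene called higher as its numerator, so these p-values are not independent of the calls. HSPA4L was the minor transcript of the pair in each library.

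BAG3, which links HSP70 to small heat shock proteins and to selective autophagy, was at 59, 58.4 and 74.4 FPKM in TFCP2L1 cells and 45.2, 51.6 and 46.1 FPKM in vector cells. All TFCP2L1 libraries were above the vector libraries, with replicate 3 highest; the log2 fold change was 0.40 ± 0.10 (edgeR adjusted p = 0.0134). BAG3 lies at chr10:119651370-119677819 on the plus strand. BAG2, an inhibitor of the ubiquitin ligase CHIP that also releases nucleotide from HSP70, was at 6.49, 6.87 and 6.13 FPKM in TFCP2L1 cells and 4.9, 4.95 and 5.01 FPKM in vector cells. Its log2 fold change was 0.36 ± 0.08 (adjusted p = 0.0081), with closely spaced vector libraries. BAG2 (chr6:57172326-57189833, plus strand) shares 42.7% of its exon bases with RAB23 on the other strand, and the sources used here do not say whether strand was kept. RAB23 was at 6.46, 6.63 and 6.12 FPKM in TFCP2L1 cells and 5.36, 5.06 and 5.57 FPKM in vector cells (0.24 ± 0.09, adjusted p = 0.108), so reads of the 2 genes may be shared.

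The remaining BAG genes were not called. BAG1, which binds HSP70 and the proteasome, was at 5.54, 5.32 and 4.45 FPKM in TFCP2L1 cells and 5.73, 4.82 and 5.69 FPKM in vector cells (-0.11 ± 0.11, edgeR adjusted p = 0.601). BAG4 (silencer of death domains) had a log2 fold change of -0.07 ± 0.10 (adjusted p = 0.742) and BAG5, which carries several BAG domains, of 0.01 ± 0.09 (adjusted p = 0.978). The libraries of all 3 overlapped between the groups. The ratio of BAG3 to BAG1 was 10.6, 11 and 16.7 in TFCP2L1 cells and 7.89, 10.7 and 8.1 in vector cells, with an exact permutation p of 0.2 (adjusted 0.25).

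Among the HSP70 genes proper, the inducible HSPA1B and the atypical HSPA12A rose. HSPA1B was at 24.9, 18.3 and 22.2 FPKM in TFCP2L1 cells and 15.3, 16.9 and 16.3 FPKM in vector cells. The lowest TFCP2L1 library lay just above the highest vector library, and the log2 fold change was 0.41 ± 0.10 (edgeR adjusted p = 0.0162). Its copy HSPA1A, which encodes a near-identical protein, was at 1.32, 1.14 and 0.687 FPKM in TFCP2L1 cells and 1.07, 0.73 and 1.29 FPKM in vector cells. The HSPA1A libraries overlapped throughout, and its log2 fold change of 0.00 had a 95% interval of -0.55 to 0.56 (adjusted p = 0.997).

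The transcripts of HSPA1A and HSPA1B are so alike that 67.3% of the 100-base windows of HSPA1A occur in HSPA1B and 68.8% of those of HSPA1B occur in HSPA1A. Reads within these windows fit both copies, so the level of each copy is uncertain. HSPA1B (chr6:31827735-31830255, plus strand) also shares 36.5% of its exon bases with an annotated transcript on its own strand. The ratio of HSPA1B to HSPA1A was 19, 16 and 32.3 in TFCP2L1 cells and 14.4, 23.1 and 12.6 in vector cells (exact permutation p = 0.4, adjusted 0.4).

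HSPA12A, a distant HSP70 relative with an atypical ATPase domain, was at 2.14, 2.45 and 2.36 FPKM in TFCP2L1 cells and 1.33, 1.58 and 1.48 FPKM in vector cells. The groups were well separated, with a log2 fold change of 0.64 ± 0.11 (edgeR adjusted p = 0.0013). The gene lies at chr10:116671192-116850236 on the minus strand. HSPA2, a testis-enriched HSP70, was at 0.589, 0.779 and 0.346 FPKM in TFCP2L1 cells and 0.175, 0.204 and 0.296 FPKM in vector cells. These values rest on 170 reads in TFCP2L1 cells and 66 in vector cells; the libraries did not overlap, and the log2 fold change of 1.32 ± 0.41 missed the threshold (adjusted p = 0.0506). HSPA1L, another testis-enriched gene, had 45 reads in TFCP2L1 cells and 71 in vector cells (-0.69 ± 0.50, adjusted p = 0.428). HSPA6, which is switched on by severe heat, was at 0.706 ± 0.204 FPKM in TFCP2L1 cells and 0.554 ± 0.183 FPKM in vector cells, with overlap (0.32 ± 0.34, adjusted p = 0.615).

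Of the 9 chaperone genes of the families with a mean of at least 100 FPKM, HSP90AA1 alone was called. This is 11.1% called higher and 0% lower, beside 4.63% and 6.94% of all genes. HSP90AA1 was at 561, 600 and 527 FPKM in TFCP2L1 cells and 458, 426 and 459 FPKM in vector cells, with no overlap and a log2 fold change of 0.30 ± 0.08 (edgeR adjusted p = 0.018). The gene lies at chr14:102080738-102139699 on the minus strand, with 3.75% of its exon bases under WDR20 on the other strand. HSP90AB1 was at 891, 949 and 823 FPKM in TFCP2L1 cells and 799, 725 and 782 FPKM in vector cells, a smaller separation (0.18 ± 0.08, adjusted p = 0.167). HSP90B1 was at 535 ± 24.1 and 478 ± 6.86 FPKM (0.14 ± 0.07, adjusted p = 0.271). All 3 HSP90 genes had each TFCP2L1 library above each vector library, as had 14.4% of all tested genes.

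The ratio of HSP90AA1 to HSP90AB1 was 0.63, 0.632 and 0.641 in TFCP2L1 cells and 0.573, 0.588 and 0.587 in vector cells. The exact permutation p was 0.1 (adjusted 0.167). The 3 ratios of each group lay close together, and the groups did not overlap.

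The J-domain genes went both ways, with calls in the DNAJB family only. Of 10 DNAJB genes, 1 was called higher (10%, beside 4.63% of all genes) and 3 lower (30%, beside 6.94%). DNAJB1 (HSP40), the main heat-inducible partner of cytosolic HSP70, was at 54.2, 48.6 and 55.7 FPKM in TFCP2L1 cells and 43.4, 45.3 and 41.6 FPKM in vector cells. The groups did not overlap, and the log2 fold change was 0.25 ± 0.08 (edgeR adjusted p = 0.0411), the closest of the 10 calls to the threshold. DNAJB1 lies at chr19:14514770-14529770 on the minus strand, with 5.75% of its exon bases under TECR on the other strand. DNAJB6, a suppressor of protein aggregation, was at 45.2, 48.9 and 42.7 FPKM in TFCP2L1 cells and 53.4, 52.6 and 58.8 FPKM in vector cells. Its log2 fold change was -0.29 ± 0.08 (adjusted p = 0.0203), with no overlap, and it lies at chr7:157335381-157417439 on the plus strand. The ratio of DNAJB1 to DNAJB6 was 1.2, 0.993 and 1.3 in TFCP2L1 cells and 0.813, 0.862 and 0.709 in vector cells (exact permutation p = 0.1, adjusted 0.167).

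DNAJB2, a J-domain protein with ubiquitin-interacting motifs, was at 14.1, 11.5 and 12 FPKM in TFCP2L1 cells and 15.7, 15.6 and 15.1 FPKM in vector cells. Its log2 fold change was -0.33 ± 0.09 (edgeR adjusted p = 0.0248), with no overlap, and it lies at chr2:219279267-219286900 on the plus strand. DNAJB9 (ERdj4), a BiP partner induced by the IRE1 and XBP1 branch of the unfolded protein response, was at 8.86, 10.6 and 8.69 FPKM in TFCP2L1 cells and 12.9, 11.9 and 14.1 FPKM in vector cells. It had the largest decrease of the called genes, a log2 fold change of -0.50 ± 0.11 (adjusted p = 0.00593), and its groups did not overlap. DNAJB9 (chr7:108569568-108574850, plus strand) shares 6.45% of its exon bases with THAP5 on the other strand, which was at 9.37 ± 1.16 FPKM in TFCP2L1 cells and 9.12 ± 1.26 FPKM in vector cells. The other 6 DNAJB genes were not called, and none of the 3 DNAJA genes was, although all 3 DNAJA values were positive (0.13 to 0.19).

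**Figure D4:**
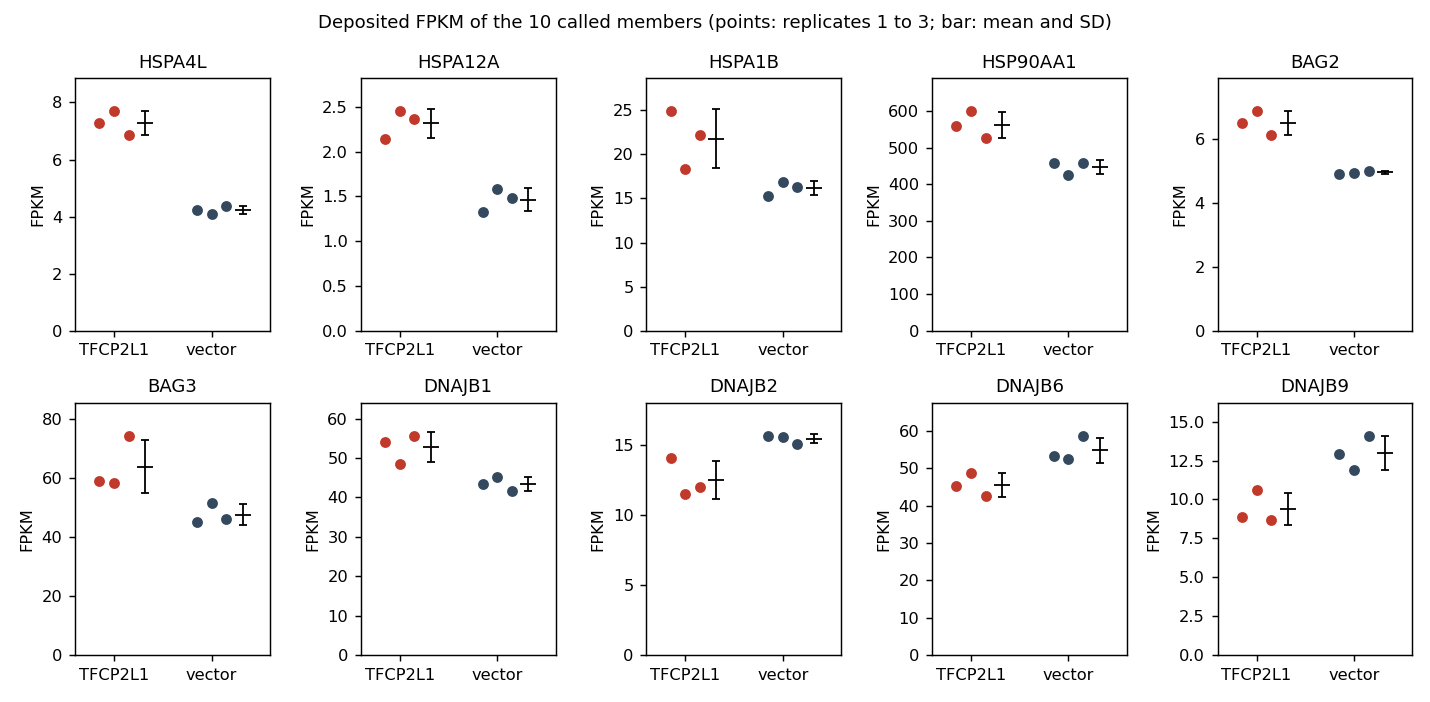
FPKM of the 10 called genes in each library, with TFCP2L1 libraries (red) left of vector libraries (dark); points are replicates 1 to 3 and the black bar is the mean with its SD. In each panel the 3 libraries of one group lie apart from those of the other, from HSPA4L at 7.28 against 4.23 FPKM to DNAJB1 at 52.8 against 43.5 FPKM.

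None of the 26 tested DNAJC genes was called (4.63% of all genes were called higher and 6.94% lower), and their median log2 fold change was 0.03. Before adjustment 5 of the 26 had p under 0.05, and DESeq2 and limma-voom each called 1, DNAJC22. DNAJC6 (auxilin), which uncoats clathrin vesicles with HSC70, was at 0.734, 0.557 and 0.535 FPKM in TFCP2L1 cells and 0.434, 0.451 and 0.255 FPKM in vector cells, without overlap (0.65 ± 0.25, edgeR adjusted p = 0.106). DNAJC19, of the mitochondrial import motor, was at 10.4, 10.6 and 12 FPKM in TFCP2L1 cells and 9.93, 7.41 and 8.87 FPKM in vector cells (0.30 ± 0.12, adjusted p = 0.129). DNAJC22 was at 1.61, 0.891 and 1.7 FPKM in TFCP2L1 cells and 2.16, 2.11 and 2 FPKM in vector cells (-0.60 ± 0.20, adjusted p = 0.0608). DNAJC12, a partner of aromatic amino acid hydroxylases, was at 1.78, 0.83 and 0.671 FPKM in TFCP2L1 cells and 2.27, 1.9 and 1.74 FPKM in vector cells (-0.88 ± 0.31, adjusted p = 0.0847). In these 4 low or modest genes the groups lay apart or nearly so, and no difference passed the threshold.

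Neither transcription factor of the response was called. HSF1 was at 48.1, 49.5 and 49.7 FPKM in TFCP2L1 cells and 47.8, 48.6 and 48 FPKM in vector cells, with a log2 fold change of 0.00 ± 0.07 and a 95% interval of -0.13 to 0.14 (edgeR adjusted p = 0.989). HSF2 was at 6.07, 7.26 and 6.27 FPKM in TFCP2L1 cells and 7.12, 6.15 and 6.81 FPKM in vector cells (-0.06 ± 0.11, adjusted p = 0.79). HSF1 acts largely through its protein state, which transcript levels do not measure.

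By compartment, the 13 genes of a cytosolic heat-inducible list held 5 of the 7 increases (BAG3, DNAJB1, HSP90AA1, HSPA1B and HSPA4L). None of the 13 was called lower (beside 6.94% of all genes), the median log2 fold change was 0.18 and 12 of 13 values were positive. This is 38.5% called higher and 92.3% positive, beside 4.63% and 50.5% of all genes, in a list chosen with earlier results of these data known. The list also holds HSPA8 (0.16) and HSP90AB1 (0.18), described above as constitutive, and HSPA1A counted as positive at 0.00. The exception to the positive values was DNAJB4, at 7.22 ± 0.477 FPKM in TFCP2L1 cells and 7.24 ± 0.312 FPKM in vector cells. Of 8 genes of the endoplasmic reticulum lumen, DNAJB9 fell (12.5%, beside 6.94% of all genes) and none rose (beside 4.63%), with a median of -0.02. HSPA5, the usual marker of stress in this compartment, was at 515, 545 and 451 FPKM in TFCP2L1 cells and 497, 450 and 488 FPKM in vector cells, with overlap (0.05 ± 0.08, edgeR adjusted p = 0.778). Of 8 mitochondrial genes none was called by edgeR, DESeq2 or limma-voom, 2 had an unadjusted edgeR p under 0.05, and the median was 0.11. Over all genes edgeR called 4.63% higher and 6.94% lower.

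HSPD1 and HSPE1, which share a bidirectional promoter, varied widely between replicates. HSPE1 was at 28.6, 35.7 and 15.5 FPKM in TFCP2L1 cells and 36.2, 19.7 and 31.4 FPKM in vector cells (-0.16 ± 0.37, edgeR adjusted p = 0.85). HSPD1 was at 280, 319 and 227 FPKM in TFCP2L1 cells and 263, 208 and 268 FPKM in vector cells (0.13 ± 0.12, adjusted p = 0.553). Both were lowest in TFCP2L1 replicate 3 and vector replicate 2, the libraries with the highest mitochondrial share. HSPB1, which oligomerises to hold unfolded clients, was highest in those libraries: 343, 284 and 437 FPKM in TFCP2L1 cells and 315, 381 and 287 FPKM in vector cells (0.09 ± 0.17, adjusted p = 0.809). HSPB11 followed the same order, at 22.1, 19.6 and 28.4 FPKM in TFCP2L1 cells and 22.3, 28.8 and 21.5 FPKM in vector cells. Over the 57 genes with at least 10 CPM, the median coefficient of variation was 8.86% in TFCP2L1 cells and 5.26% in vector cells.

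Chaperone genes outside these families were mostly not called, and the shares over all genes to read the counts against are 4.63% higher and 6.94% lower. Of 20 HSP90 co-chaperones, FKBP5 and PPP5C (10% of the list) rose and none fell (median log2 fold change 0.16). FKBP5, an immunophilin induced by glucocorticoid receptor, was at 4.81, 5.11 and 4.89 FPKM in TFCP2L1 cells and 2.95, 2.84 and 3.04 FPKM in vector cells (0.72 ± 0.08, edgeR adjusted p = 2.28e-05). PPP5C, a phosphatase bound to HSP90, was at 45.3, 41.7 and 42.2 FPKM in TFCP2L1 cells and 34.3, 34.2 and 36.1 FPKM in vector cells (0.28 ± 0.07, adjusted p = 0.0203). The groups were apart for both genes.

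Of 14 tested chaperonin and prefoldin genes, CCT6A rose (7.14%, near the share of all genes), and 13 of 14 values were positive (median 0.15). CCT6A was at 128, 126 and 136 FPKM in TFCP2L1 cells and 105, 105 and 105 FPKM in vector cells (0.28 ± 0.07, edgeR adjusted p = 0.0168). Of 11 tested genes of mitochondrial proteostasis, TRAP1, the mitochondrial HSP90, rose (9.09%) and none fell. TRAP1 was at 40.2, 36.1 and 44.4 FPKM in TFCP2L1 cells and 25.3, 27.1 and 27.4 FPKM in vector cells (0.57 ± 0.09, adjusted p = 0.000339). In contrast with these single genes, none was called in either direction by edgeR among 12 other genes of the HSF1 pathway (median 0.08), 14 further HSP70 co-chaperones (0.08) and 18 genes of the unfolded protein response (-0.08). Unadjusted p was under 0.05 for 4, 3 and 2 genes of these lists in that order. DESeq2 called 1 of the 12, 2 of the 14 and 0 of the 18, and limma-voom called 0 in each.

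The calls did not hold equally when 1 library was left out. HSPA4L and HSPA12A were called in 6 of 6 such fits, with edgeR adjusted p of at most 0.000173 and 0.0133. BAG2 lost its call without vector replicate 1 (0.0503) and DNAJB9 without vector replicate 3 (0.0588). BAG3 lost it without vector replicate 1 (0.0804) or 3 (0.0789). HSP90AA1 lost it without any of vector replicates 1 (0.0806), 2 (0.0973) and 3 (0.081), and HSPA1B without vector replicate 1 (0.0901) or 3 (0.0702) or TFCP2L1 replicate 1 (0.0974).

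The other 3 DNAJB calls were lost in at least 3 of 6 fits. DNAJB6 lost its call without vector replicate 1 (adjusted p = 0.0602) or 3 (0.147) or TFCP2L1 replicate 1 (0.0781), all by edgeR. DNAJB2 lost it without vector replicate 1 (0.0995), 2 (0.0716) or 3 (0.081) or TFCP2L1 replicate 2 (0.066). DNAJB1 kept its call only without TFCP2L1 replicate 2 and lost it in the other 5 fits (0.0593 to 0.2). Outside the families, CCT6A lost its call without vector replicate 1 (0.0901), 2 (0.0632) or 3 (0.0896), and PPP5C without vector replicate 1 (0.108), 2 (0.0788) or 3 (0.0687) or TFCP2L1 replicate 1 (0.0782). Calls were gained by HSPA2 (0.0133) and DNAJC22 (0.00759) without TFCP2L1 replicate 3, and by DNAJC12 (0.0092) without TFCP2L1 replicate 1. Over all 14431 genes the count called higher was 668; over the genes then tested it was 298 without vector replicate 1 and 313 without vector replicate 3, so fewer genes of any kind were called in those fits.

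**Figure D5:**
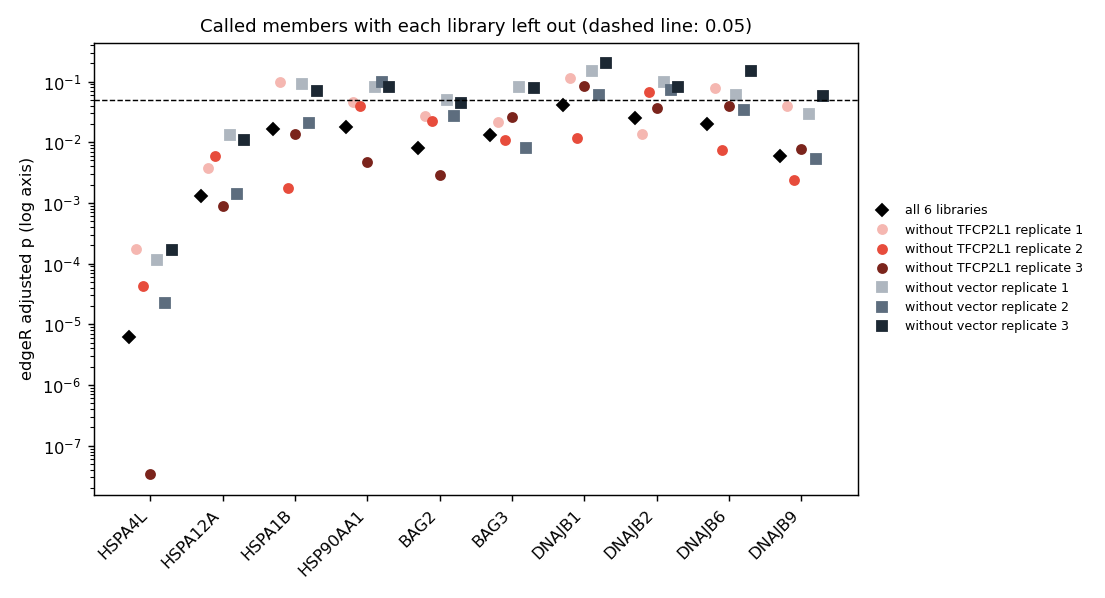
EdgeR adjusted p (log axis) of the 10 called genes with all 6 libraries (black diamonds) and with each TFCP2L1 library (red circles) or vector library (grey squares) left out; the dashed line is 0.05. HSPA4L and HSPA12A stay under the line in each fit, whereas DNAJB1 is above it in 5 of 6.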

How the data were processed

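RNA-seq of 3 TFCP2L1 and 3 vector libraries of TPC1 was analysed. Per the labels' protocols, TRIzol was used for extraction and a VAHTS Universal V6 kit for the libraries. The submitters' processing notes name fastp, HISAT2, HTSeq and GRCh38.p13, without tool versions. The authors deposited raw read counts of 21173 genes and FPKM values; in all 21173 genes, the ratio of count to FPKM gave 1 gene length within 0.001%. The FPKM values therefore rest on the same counts.

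Counts were tested with edgeR 4.0.16 in R 4.3.3: filterByExpr (14431 genes kept), TMM scaling, a robust quasi-likelihood F-test, two-sided, in 1 fit of all 6 libraries, with Benjamini-Hochberg adjustment over all genes tested. The standard error is the absolute log2 fold change over the root of F. Overlap between groups was judged on TMM-scaled CPM, so a gene may overlap in FPKM and not there. The edgeR step was tested on simulated data. Named genes were those called, the given markers, HSF1, HSF2, BAG1 to BAG5, the highest of each family, and genes without overlap and an absolute log2 fold change of at least 0.3; other genes of a list were named where called, and further genes were named after their values were seen. The members and lists were chosen with earlier results of these data known. Gene positions and exon overlaps come from GENCODE v29 (GRCh38), which matched 72 of 72 symbols, and promoter windows from RefSeq (GRCh38.p14). Planned protein comparisons were not made. The mean chi-square statistic per gene between replicates of a group was 7.8 to 45.5, so no library was an exact copy of another. No p-value was computed for it. Alternatives were other scalings and filters, DESeq2 1.42.0, limma 3.58.1 (voom, and log2 FPKM with pseudocounts of 1 and 0.1), a replicate block and leaving out each library.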

Additional observations from a re-analysis of the deposited data

How the results depend on the processing

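Of the chaperone genes, 7 were called higher and 3 lower. With limma on log2(FPKM + 1) these counts were 3 and 1, with a pseudocount of 0.1 they were 5 and 1, and without a filter on low counts they were 8 and 5. Over all genes, the main fit called 668 higher and 1002 lower. The corresponding counts were 540 and 728 with log2(FPKM + 1), 553 and 734 with 0.1, and 919 and 1151 without the filter. Among genes of the cytosolic heat-inducible list, 5 were called higher, against 1 and 3 with those pseudocounts. DESeq2 called 8 higher and 4 lower (862 and 1119 over all genes), and limma-voom 7 and 4 (644 and 999). Same-numbered libraries showed no sign of pairing. Their deviations correlated at 0.0721, -0.161 and -0.124, and those of differently numbered libraries at -0.108 to 0.22. With 3 libraries a group this cannot exclude pairing. With the replicate block the counts were 3 higher, 1 lower and 1 heat-inducible. Calls over all genes also fell with the block, to 328 higher and 649 lower. Leaving out 1 library gave 2 to 8 higher, 0 to 4 lower and 1 to 5 heat-inducible. The low ends came without vector replicate 1 (2 higher and 1 lower) or 3 (3 and 0). Over all genes, 298 were called higher and 645 lower without vector replicate 1, and 313 and 621 without vector replicate 3. HSPA2 was called by DESeq2 (adjusted p = 0.0218), with RLE scaling (0.0498), with library totals only (0.0457) and without a filter (0.0196). DNAJC22 was called by DESeq2 (0.0274), by limma-voom (0.0423) and without a filter (0.00369), and DNAJC12 without a filter (0.0137). HSPA4L, HSPA12A, BAG2 and DNAJB9 were called in all 10 alternatives that kept every library. Over the named genes and alternatives, the result kept its direction and side of the threshold in 470 cases, lost a call in 47, gained one in 11 and changed sign in 14.

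The sign changes were all in genes near 0, in log2 fold change. HSF1 was at -0.0039 with upper-quartile scaling, -0.00034 with at least 50 reads in 3 libraries, -0.0042 and -0.0013 without vector replicates 1 and 3, and -0.0052 and -0.011 without TFCP2L1 replicates 2 and 3; the highest value with a library left out was 0.025. BAG5 was at -0.00037 with upper-quartile scaling, -0.051 without vector replicate 2, and -0.019 and -0.02 without TFCP2L1 replicates 2 and 3 (highest 0.058). HSPB1 was at -0.0011 without vector replicate 3 and -0.096 without TFCP2L1 replicate 3 (highest 0.22), DNAJB11 at -0.026 without TFCP2L1 replicate 2, and DNAJC8 at -0.03 without TFCP2L1 replicate 3 (highest 0.086). The cause was not tested. Depth limits HSPA2, HSPA1L, HSPA6 and HSPA1A, each with fewer than 300 reads per group.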

Other observations

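Several genes without a call stood above the vector libraries in each TFCP2L1 library. The same held for 14.4% of all tested genes, called or not. DNAJA3, a mitochondrial J-domain protein (Tid1), was at 31.8, 30 and 30.6 FPKM in TFCP2L1 cells and 27.3, 25.5 and 26.9 FPKM in vector cells (0.19 ± 0.07 in log2, edgeR adjusted p = 0.119). DNAJB12, a J-domain protein of the endoplasmic reticulum membrane, was at 22.2, 22.8 and 27.6 FPKM in TFCP2L1 cells and 20.1, 21 and 19.8 FPKM in vector cells (0.23 ± 0.09, adjusted p = 0.119). DNAJC14 was at 12.8, 13 and 13.4 FPKM in TFCP2L1 cells and 11.5, 11.6 and 11.6 FPKM in vector cells (0.15 ± 0.08, adjusted p = 0.237). DNAJC1, of the endoplasmic reticulum, was at 4.87, 5.69 and 4.79 FPKM in TFCP2L1 cells and 4.5, 4.11 and 4.43 FPKM in vector cells (0.21 ± 0.12, adjusted p = 0.295). These genes were chosen after their values were seen.

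DNAJC5 (cysteine string protein), a J-domain protein of secretory vesicles, was at 25, 22 and 22.8 FPKM in TFCP2L1 cells and 27.2, 24.1 and 26.2 FPKM in vector cells. Its libraries overlapped, and the log2 fold change was -0.18 ± 0.08 (edgeR adjusted p = 0.155). DNAJC9, which also handles histones, was at 38.8, 37.5 and 28.4 FPKM in TFCP2L1 cells and 34.2, 27 and 30.9 FPKM in vector cells, lowest in TFCP2L1 replicate 3 and vector replicate 2 as HSPD1 and HSPE1 were (0.16 ± 0.11, adjusted p = 0.428).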
